A study of Mus musculus with 32 samples.

Results

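Sox2, Sox9, Prox1, Slitrk6, Bace2, Lgr5, Fabp7 and Rorb are transcripts by which supporting cells of the cochlea are recognised. These 8 genes were taken by symbol from 32 RNA sequencing libraries of mouse cochlea, out of 39399 genes listed for one mouse strain and 43947 for the other. All 8 had a value above 0 in every library, and all 8 passed the filter on low values in each of the 15 comparisons made. Because the Sox2 promoter also drives Cre in 1 of the strains, "the Sox2 strain" stands here for the mice and "the Sox2 transcript" for the gene.

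Supporting cells (pillar, Deiters, phalangeal, border and Hensen cells) surround the sensory hair cells of the organ of Corti, hold them in place and clear ions and transmitter from around them. Several of the transcription factors that mark them, Sox2 among them, act earlier in the progenitors that supporting cells share with hair cells. In the adult mammal they stay in place after hair cells are damaged and do not normally replace them. Some of the 8 genes are also expressed elsewhere in the cochlea, Sox2 and Fabp7 in the glia of the auditory nerve and Sox9 in cells of the connective tissue.

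The study followed the response to damaging noise in pull-downs from 2 kinds of cochlear cell and in whole tissue. One strain was PrestinCre/+;RiboTagHA/+, in which the promoter of Prestin drives Cre (its gene, Slc26a5, encodes the motor of the outer hair cell), and the other was Sox2Cre/+;RiboTagHA/+. The series' design names them PrestinCreERT2;RiboTag;CBA and Sox2CreERT2;RiboTag;CBA, so mice of every group, controls included, carried a Cre driver and the RiboTag allele, which puts an HA tag on the ribosomal protein Rpl22 in cells with active Cre. The sources used here do not say how either Cre allele was built or when Cre was activated, and Sox2 is both one of the 8 genes and the driver of a strain. Mice were 10 weeks old. Noise groups heard 105 dB SPL for 2 h and were taken 6 h or 24 h later, and control groups heard no such noise. Each cochlear homogenate gave an input library (an aliquot of the whole cochlea) and an IP library (RNA pulled down with an HA antibody, enriched for outer hair cells or for supporting cells by the labels). Each of the 6 Prestin groups (IP or input; control, 6 h or 24 h) held 3 libraries. In the Sox2 strain, control and 6 h held 2 IP and 2 input libraries each, and 24 h held 3 of each.

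Values were TPM, a transcript's length-scaled share of a library, so the read depth behind them is unknown and a level is relative to all other RNA in that library. In bulk RNA, fewer cells of a type and less RNA per cell cannot be told apart. The Sox2 libraries at 6 h listed 15929 to 16966 genes above 0, against 17395 to 21239 in the other Sox2 libraries and 18592 to 19764 in the Prestin libraries. Slc26a5 ran from 6.26 to 25.4 TPM over the Prestin IPs and from 0.949 to 1.75 TPM over the matching inputs. The tables of the strains list different gene sets and were treated as normalised separately. Levels of both strains are set side by side below without a test, and only ratios within a strain were compared between strains.

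Of the 8 genes, those with an entry in the RefSeq promoter table (GRCm38.p6) were Sox2, Prox1, Slitrk6, Fabp7 and Rorb. The 250 bases upstream of the start are shown for Sox2, Slitrk6 and Prox1, the genes that led the enrichment in one or the other pull-down, with motif matches in capitals. The Sox2 window is chr3:34649745-34649994 on the plus strand, the Slitrk6 window chr14:110755150-110755399 on the minus strand and the Prox1 window chr1:190170828-190171077 on the minus strand, each written 5′ to 3′ on the strand of its gene and ending at the base before the RefSeq start.
Sox2: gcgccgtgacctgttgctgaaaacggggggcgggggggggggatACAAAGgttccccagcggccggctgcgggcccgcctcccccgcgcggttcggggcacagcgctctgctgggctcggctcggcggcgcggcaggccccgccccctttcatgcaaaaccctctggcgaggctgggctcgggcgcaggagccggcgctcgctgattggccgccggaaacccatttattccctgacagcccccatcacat
Slitrk6: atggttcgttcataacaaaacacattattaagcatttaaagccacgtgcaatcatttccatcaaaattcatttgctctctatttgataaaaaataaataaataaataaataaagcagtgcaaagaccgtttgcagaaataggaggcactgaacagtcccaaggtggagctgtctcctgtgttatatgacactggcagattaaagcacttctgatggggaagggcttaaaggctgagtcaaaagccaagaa
Prox1: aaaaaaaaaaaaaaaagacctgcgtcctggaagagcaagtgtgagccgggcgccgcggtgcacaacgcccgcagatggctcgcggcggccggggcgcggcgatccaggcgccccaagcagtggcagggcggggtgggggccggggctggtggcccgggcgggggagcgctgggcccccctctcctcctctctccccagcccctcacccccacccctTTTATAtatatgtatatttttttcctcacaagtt
The capitals in the Sox2 window mark ACAAAG, a core SOX motif, whose first base lies 206 bases before the start. Those in the Prox1 window mark TTTATA, the reverse complement of the TATA motif TATAAA, which begins 34 bases before the start. The search covered both strands for the SOX motifs ACAAAG and ACAATG, the RBPJ motif GTGGGAA and TATAAA. Among 32851 promoter windows of the same length, 16.5% held ACAAAG, 10.7% ACAATG, 5.42% GTGGGAA and 12.4% TATAAA. None of these motifs was found in the windows of Slitrk6, Fabp7 and Rorb, and a further Prox1 window, not shown, held ACAAAG on its other strand 174 bases before the start. The windows also differ in composition: GC content is 72% with 27 CpG sites for Sox2, 64.8% with 20 for Prox1 and 37.2% with 3 for Slitrk6, against medians of 52.4% and 6 over all windows.

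In GENCODE M21 (GRCm38), Sox2 (ENSMUSG00000074637) is a single-exon gene at chr3:34650405-34652461, Sox9 (ENSMUSG00000000567) lies at chr11:112782224-112787760, Bace2 (ENSMUSG00000040605) at chr16:97356742-97442936 and Fabp7 (ENSMUSG00000019874) at chr10:57784881-57788450, all on the plus strand. On the minus strand, Prox1 (ENSMUSG00000010175) lies at chr1:190118035-190170714, Slitrk6 (ENSMUSG00000045871) at chr14:110748580-110755149, Lgr5 (ENSMUSG00000020140) at chr10:115450311-115587780 and Rorb (ENSMUSG00000036192) at chr19:18930605-19111196. Sox2 lies inside Sox2ot on the same strand, and Bace2 overlaps Gm49681, also on its own strand. Prox1 overlaps the antisense genes Prox1os and Gm28172, and Lgr5 the antisense gene A930009A15Rik. Whether counting used strand is not stated in the sources, so reads of antisense pairs may not be separated, and strand alone would not separate the same-strand pairs. Sox2ot had at most 0.306 TPM in the Sox2 strain, under Sox2 in each of its 14 libraries, and its level in the Prestin strain and that of Gm49681 were not analysed here. Over all 32 libraries Prox1os had at most 0.495 TPM and Gm28172 at most 5.49 TPM, both under Prox1 in each library. In Prestin IP control replicate 1, Gm28172 stood at 73.1% of Prox1, its highest share, so Prox1 levels are uncertain to that extent. A930009A15Rik reached 5.76 TPM and lay under Lgr5 in 26 of the 32 libraries. The other 6 were IPs, all of the Prestin strain except Sox2 IP 6 h replicate 4. The Lgr5 levels of the IPs are uncertain to that extent.

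**Figure D1:**
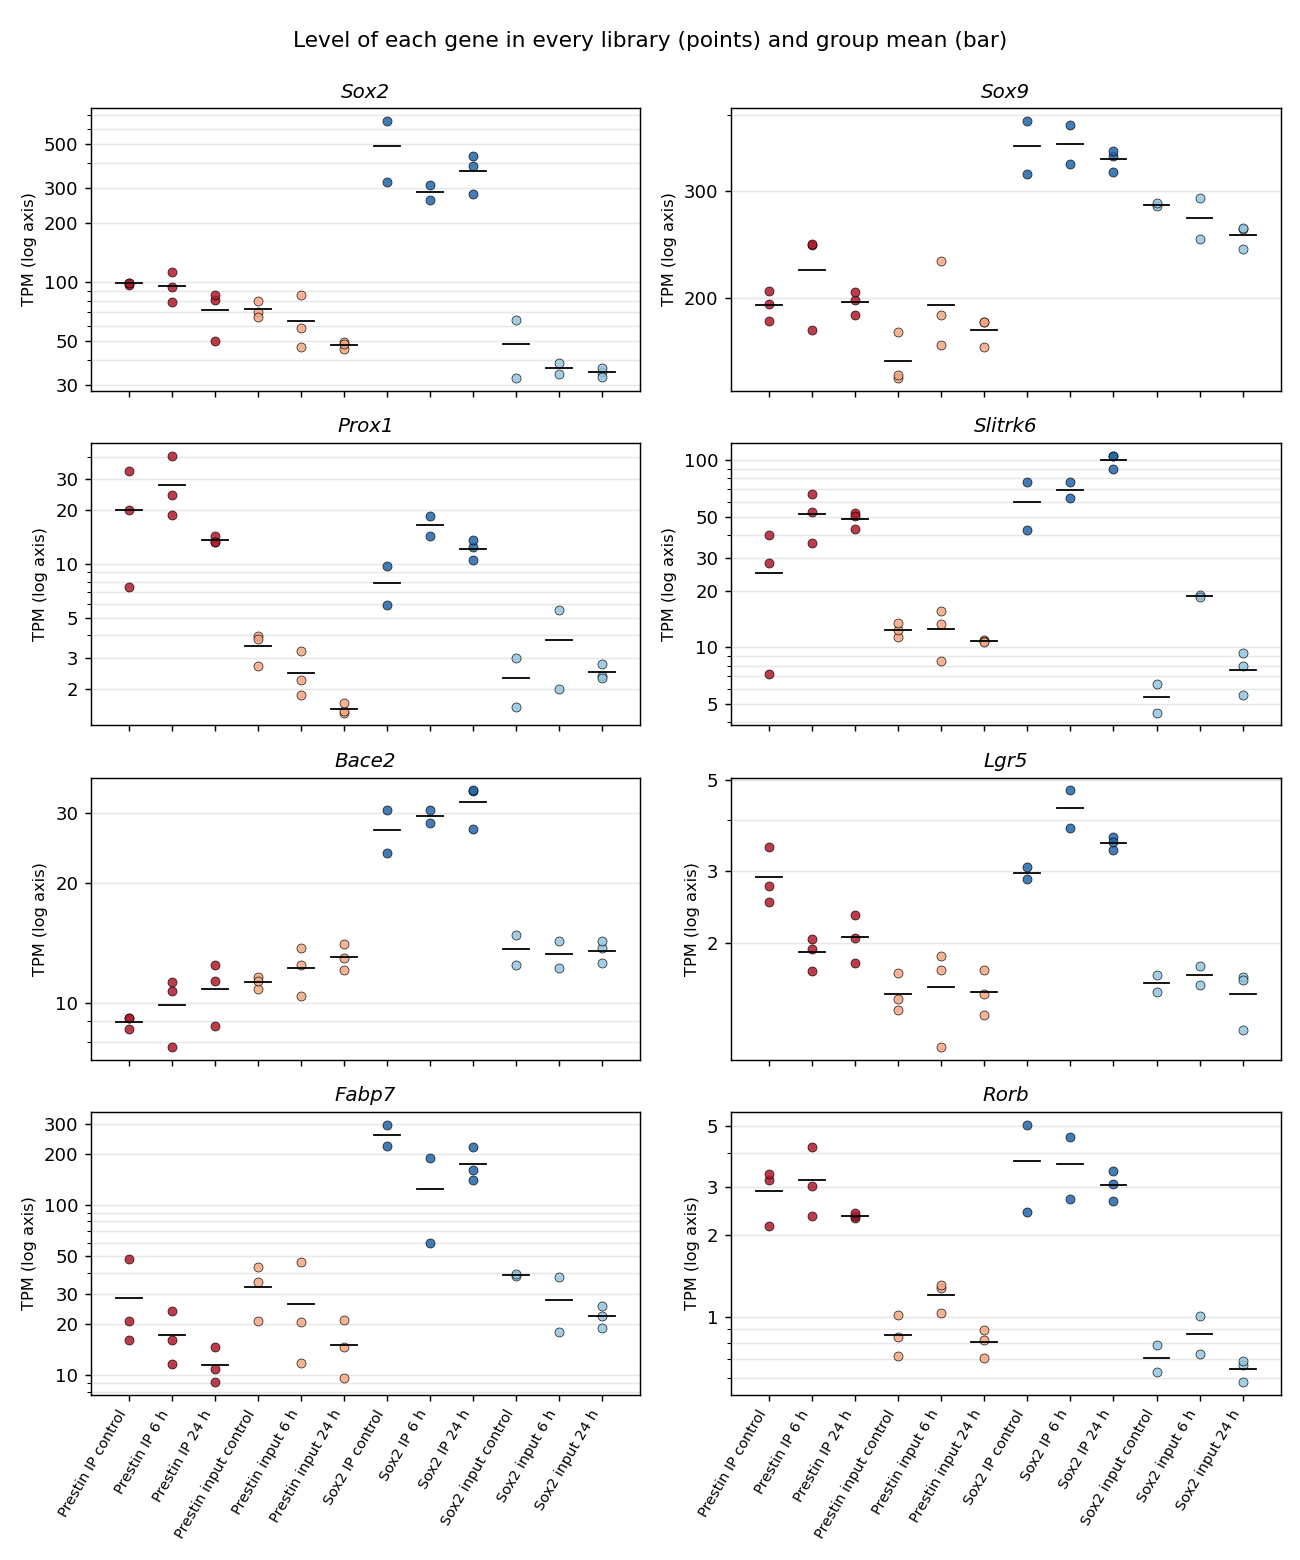
TPM of each of the 8 genes (log axis) in every library of the 12 groups; points are libraries and bars are group means, Prestin IPs in dark red, Prestin inputs in light orange, Sox2 IPs in dark blue and Sox2 inputs in light blue. The Sox2 IPs lie above every other library for the Sox2, Sox9, Bace2 and Fabp7 transcripts, and Prox1 is the gene whose highest group means are Prestin IPs.

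The first question was which of these transcripts each pull-down carries more of than the whole cochlea. In the Sox2 strain, all 8 genes were higher in the IP than in the input (limma, adjusted p under 0.05), in a comparison in which 55.2% of 18560 genes were higher. In the Prestin strain, 6 of the 8 were higher, where 68.5% of 17363 genes were, and 1, Bace2, was lower, where 7.68% of genes were. The median log2 fold change of the 8 genes was 1.55 in the Sox2 strain against 0.65 for all genes tested, and 0.45 in the Prestin strain against 0.82. These counts and medians include Sox2, the driver of the Sox2 strain, and the 8 genes were chosen with earlier results of these data known. They are therefore a description and not an independent test. The median gene itself lies above 0 in both strains. With median-of-ratios scaling, which puts the median gene at 0.05 and 0.02, 7 of the 8 genes passed in the Prestin strain, 2 of them higher and 5 lower, and 6 in the Sox2 strain, 5 higher and 1 lower. The 7 are not those of the unscaled values: Slitrk6 was lost and Fabp7 gained. Over all genes that scaling turned 11885 higher and 1333 lower calls into 5651 and 5455 in the Prestin strain, and 10241 and 505 into 3442 and 3455 in the Sox2 strain. Without the 6 h libraries, which list fewer genes, all 8 still passed in the Sox2 strain. In the control libraries alone, 4 of the 8 passed in each strain, while the calls over all genes fell from 13218 to 10074 in the Prestin strain and from 10746 to 4655 in the Sox2 strain. Calls lost there were those of Sox9 (0.31, adjusted p = 0.226), Prox1 (1.42, 0.0636), Lgr5 (0.62, 0.11) and Rorb (1.42, 0.0612) in the Sox2 strain, and of Sox9 (0.30, 0.0786), Slitrk6 (0.68, 0.343) and Bace2 (-0.30, 0.0971) in the Prestin strain.

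The levels of each gene follow, the transcription factors first. Differences below are log2 fold changes of TPM + 1, IP against input averaged over the 3 conditions, ± the standard error of the fit.

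The Sox2 transcript encodes an HMG-box transcription factor that marks supporting cells and its promoter drives Cre in the Sox2 strain. In the Sox2 IPs it stood at 654 and 320.3 TPM without noise, 259 and 309.6 at 6 h and 279.6, 434 and 385 at 24 h. The matching inputs held 63.7 and 32.5 without noise, 34.1 and 38.6 at 6 h and 34.8, 36.4 and 33.02 at 24 h. Each Sox2 IP lay above each input, and the ratio of IP to its own input ran from 7.58 to 11.9 with a median of 9.85. The fit gave 3.19 ± 0.20 (adjusted p = 6.24e-07). In the Prestin IPs its level was 96.9, 98.5 and 98.8 TPM without noise, 78.8, 112 and 94.3 at 6 h and 81.2, 49.9 and 85.4 at 24 h. The Prestin inputs held 70.4, 66.6 and 80.2 without noise, 46.9, 85.3 and 58.2 at 6 h and 45.8, 49.5 and 48.6 at 24 h. Each of the 9 Prestin IPs was above its own input, by ratios of 1.01 to 1.77 with a median of 1.48, and the fit gave 0.53 ± 0.12 (adjusted p = 0.00131), which is -0.29 relative to the median gene and -0.54 ± 0.12 (adjusted p = 0.00088) with median-of-ratios scaling. In order of group means, the Sox2 IPs (487 ± 236 for control, 366 ± 78.7 at 24 h and 284 ± 35.9 at 6 h) came first, the 24 h group overlapping each of the other two and the 6 h group lying wholly below the control, and all were separated by a gap from the Prestin IP control (98.1 ± 1.03). Below that, neighbouring groups overlapped down to the Prestin input at 24 h (47.96 ± 1.89), which lay above both Sox2 inputs after noise (36.4 ± 3.14 and 34.7 ± 1.68).

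Sox9 encodes a second HMG-box factor, expressed in supporting cells and in connective tissue and cartilage lineages. It had the highest input levels of the 8 genes, 148 to 230.1 TPM over the 9 Prestin inputs and 241 to 292 TPM over the 7 Sox2 inputs, and the smallest enrichment in the Sox2 strain. The Sox2 IPs held 319 and 390.4 TPM without noise, 332 and 385 at 6 h and 343, 349 and 322 at 24 h. Every Sox2 IP lay above every Sox2 input, with ratios from 1.13 to 1.54 with a median of 1.34 and a fit of 0.37 ± 0.07 (adjusted p = 0.00112). Across the 9 Prestin IPs the level ran from 178 through a median of 199 to 246 TPM, overlapping the inputs, and the fit gave 0.21 ± 0.08 (adjusted p = 0.0232). That call was lost when any of 4 homogenates was left out (adjusted p 0.064 to 0.0819). With median-of-ratios scaling Sox9 was -0.54 ± 0.08 in the Sox2 strain and -0.86 ± 0.09 in the Prestin strain, both past the threshold in the opposite direction, and rescaled without mitochondrial genes and Malat1 it was 0.07 and 0.01, neither past it (adjusted p = 0.486 and 0.9). The 3 Sox2 IP groups (359 ± 37.5, 355 ± 50.2 and 338 ± 14.2 TPM for 6 h, control and 24 h) overlapped one another and lay above the Sox2 input control (285 ± 2.15).

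Prox1, a homeobox transcription factor of pillar and Deiters cells and of lymphatic endothelium, was the gene most enriched in the Prestin strain. Its Prestin IP levels were 7.51, 20.1 and 33.1 TPM without noise, 24.4, 40.4 and 18.9 at 6 h and 14.3, 13.2 and 13.3 at 24 h. Inputs of that strain held 3.97, 2.69 and 3.83 without noise, 2.25, 3.28 and 1.85 at 6 h and 1.48, 1.51 and 1.69 at 24 h. All Prestin IPs lay above all Prestin inputs, although the ratios spread widely, from 1.89 to 12.3 with a median of 8.76. The fit gave 2.52 ± 0.22 (adjusted p = 7.29e-08). The Sox2 IPs held 9.78 and 5.89 TPM without noise, 18.6 and 14.5 at 6 h and 12.5, 10.6 and 13.7 at 24 h, and their inputs 3.01 and 1.60 without noise, 2.01 and 5.58 at 6 h and 2.37, 2.33 and 2.77 at 24 h. Each Sox2 IP again exceeded each input, with ratios from 2.59 to 9.23 with a median of 4.55 and a fit of 1.77 ± 0.20 (adjusted p = 3.38e-05). The group means were led by the Prestin IPs at 6 h (27.9 ± 11.2) and without noise (20.2 ± 12.8), which overlapped each other, and all inputs lay below all IP groups.

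Rorb, a retinoid-related orphan nuclear receptor, was the least abundant of the 8 genes in the inputs. It was listed at 0.708 to 1.31 TPM over the Prestin inputs and 0.578 to 1.01 TPM over the Sox2 inputs. The Sox2 IPs held 5.05 and 2.43 TPM without noise, 4.56 and 2.70 at 6 h and 2.65, 3.43 and 3.08 at 24 h. Prestin IPs held 2.16, 3.19 and 3.35 without noise, 4.18, 2.34 and 3.03 at 6 h and 2.31, 2.35 and 2.40 at 24 h. Every IP of both strains lay above every input. The control and 6 h IPs of the Prestin strain overlapped the Sox2 IPs, while the 3 Prestin IPs at 24 h lay below every Sox2 IP. The enrichment was 1.33 ± 0.16 in the Sox2 strain (adjusted p = 5.62e-05) and 0.95 ± 0.10 in the Prestin strain (adjusted p = 4.23e-07). Relative to the median gene these values were 0.69 in the Sox2 strain and 0.13 in the Prestin strain. They lay at percentiles 83.1 and 56.4 of all genes tested, so the Prestin value was close to that of the median gene. Because its inputs lie near 1 TPM, the added pseudocount shrinks the fitted values, and the ratios to the own input were larger, with medians of 4.98 and 3.0.

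Slitrk6, a leucine-rich repeat membrane protein needed for innervation of the inner ear, was enriched in both pull-downs. The Sox2 IPs held 76.4 and 42.6 TPM without noise, 62.97 and 76.3 at 6 h and 90.1, 105 and 106 at 24 h. Their inputs held 4.49 and 6.40 without noise, 19.2 and 18.7 at 6 h and 9.31, 7.95 and 5.56 at 24 h. The lowest Sox2 IP lay above the highest input, and the ratio to the own input ran from 3.29 to 18.98 with a median of 9.68. Both 6 h homogenates, at 3.29 and 4.09, had the lowest ratios of the 7 and the highest inputs. The fit gave 2.86 ± 0.16 (adjusted p = 2.87e-07). In the Prestin strain the IPs held 7.24, 28.3 and 39.7 TPM without noise, 66.05, 52.98 and 36.1 at 6 h and 52.03, 50.3 and 42.9 at 24 h. The inputs there were at 11.4, 12.4 and 13.5 without noise, 15.6, 8.46 and 13.3 at 6 h and 10.97, 10.8 and 10.7 at 24 h. One control homogenate, replicate 1, had an IP below its input (ratio 0.637), and the other 8 had IPs above theirs by up to 6.26 times. That IP was also the lowest of all Prestin IPs for Prox1 (7.51 TPM) and the highest in the summed level of 9 outer hair cell genes (2214 TPM, against 511 to 1238 in the other Prestin IPs); the part this plays in its Slitrk6 level was not tested. The Prestin enrichment was 1.57 ± 0.25 (adjusted p = 3.83e-05), 1.78 without that homogenate, and 0.68 ± 0.59 (adjusted p = 0.343) in the control libraries alone. With median-of-ratios scaling it was 0.55 ± 0.24, which missed the threshold (adjusted p = 0.0555).

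Lgr5 encodes a receptor for R-spondins that strengthens Wnt signalling and marks a subset of Deiters, pillar and border cells. It was low in all libraries, at 2.87 and 3.07 TPM in the Sox2 IPs without noise, 3.81 and 4.71 at 6 h and 3.64, 3.38 and 3.52 at 24 h. The Prestin IPs held 3.43, 2.52 and 2.76 TPM without noise, 1.93, 1.71 and 2.04 at 6 h and 1.79, 2.34 and 2.05 at 24 h. Inputs of the Prestin strain ran from 1.11 to 1.86 TPM and those of the Sox2 strain from 1.23 to 1.76 TPM, so each Sox2 IP, but not each Prestin IP, lay above all inputs of its strain. The enrichment was 0.82 ± 0.10 in the Sox2 strain (adjusted p = 6.42e-05) and 0.37 ± 0.09 in the Prestin strain (adjusted p = 0.00120). Relative to the median gene the Prestin value was -0.45, and with median-of-ratios scaling it turned to -0.33 ± 0.09 (adjusted p = 0.00662). That scaling left the Sox2 value at 0.18 ± 0.10, no longer past the threshold (adjusted p = 0.201).

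Bace2, an aspartyl protease related to the amyloid-processing enzyme Bace1, was enriched in one pull-down and depleted in the other. Its level in the Sox2 IPs was 30.4 and 23.8 TPM without noise, 30.5 and 28.2 at 6 h and 27.3, 34.1 and 34.1 at 24 h, above all 7 of their inputs (12.2 to 14.8 TPM). In the Prestin IPs it was 9.18, 9.16 and 8.61 TPM without noise, 10.7, 7.75 and 11.3 at 6 h and 8.73, 12.4 and 11.4 at 24 h, and each of the 9 lay below its own input (inputs 10.4 to 14.1 TPM; ratios 0.723 to 0.960 with a median of 0.808). The fits gave 1.07 ± 0.09 in the Sox2 strain (adjusted p = 5.87e-06) and -0.28 ± 0.08 in the Prestin strain (adjusted p = 0.00788). With median-of-ratios scaling the Sox2 value was 0.20 ± 0.10, which missed the threshold (adjusted p = 0.155). In order of means, the 3 Sox2 IP groups overlapped one another and stood apart from the other 9 groups, each of which overlapped its neighbour.

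Fabp7, a fatty acid-binding protein of glia and of supporting cells around the inner hair cells, was abundant in the Sox2 pull-down and not enriched in the Prestin one. The Sox2 IPs held 294 and 221 TPM without noise, 60.2 and 187 at 6 h and 141, 219 and 161 at 24 h. In the inputs the levels were 38.1 and 39.3 without noise, 17.9 and 37.6 at 6 h and 25.7, 18.95 and 22.2 at 24 h. Even the lowest Sox2 IP, 60.2 TPM at 6 h, exceeded the highest input, and the fit gave 2.52 ± 0.26 (adjusted p = 1.82e-05). The Prestin IPs held 20.7, 48.5 and 16.2 TPM without noise, 16.03, 23.9 and 11.7 at 6 h and 9.17, 10.96 and 14.6 at 24 h. In the Prestin inputs they were 20.8, 35.4 and 43.4 without noise, 11.8, 46.3 and 20.4 at 6 h and 21.1, 9.61 and 14.7 at 24 h. Here IPs and inputs overlapped, 3 of 9 IPs were above their own input, and the fit gave -0.35 ± 0.28 (adjusted p = 0.266, 95% interval -0.95 to 0.25). With median-of-ratios scaling it was -1.37 ± 0.27 (adjusted p = 0.000392).

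**Figure D2:**
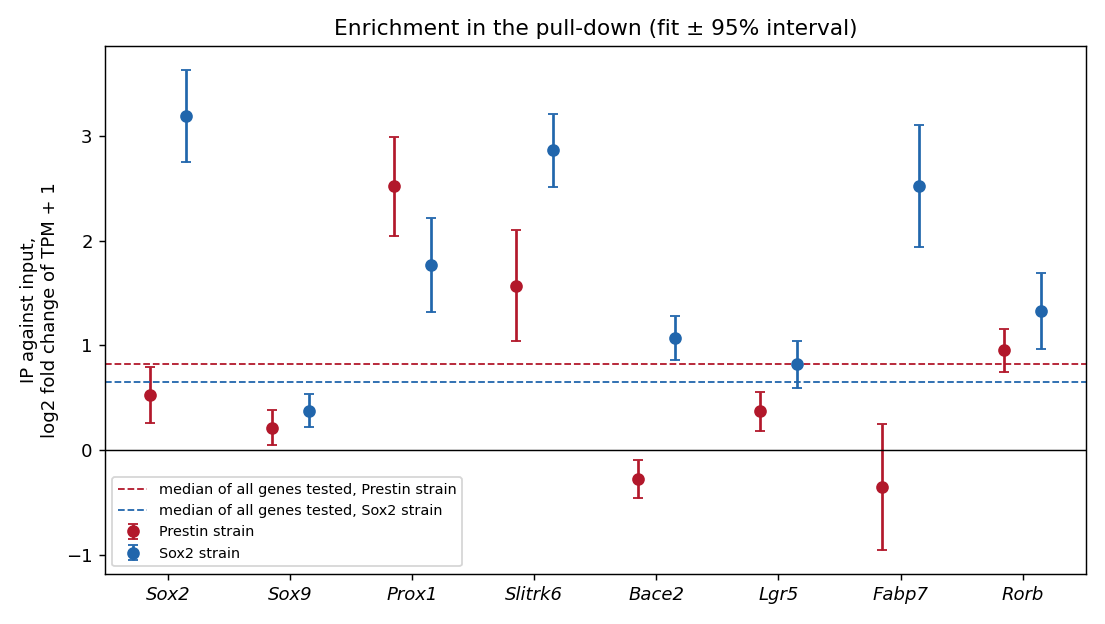
Log2 fold change of TPM + 1, IP against input, for each gene in the Prestin strain (red) and the Sox2 strain (blue); points are fits over all conditions, bars are 95% intervals and dashed lines mark the median of all genes tested (0.82 and 0.65). Sox2, Slitrk6 and Fabp7 lie far above the line in the Sox2 strain, and Prox1 and Slitrk6 lie above it in the Prestin strain. The Bace2 and Fabp7 points lie on opposite sides of 0 in the 2 strains, but the Prestin interval of Fabp7 includes 0.

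**Figure D3:**
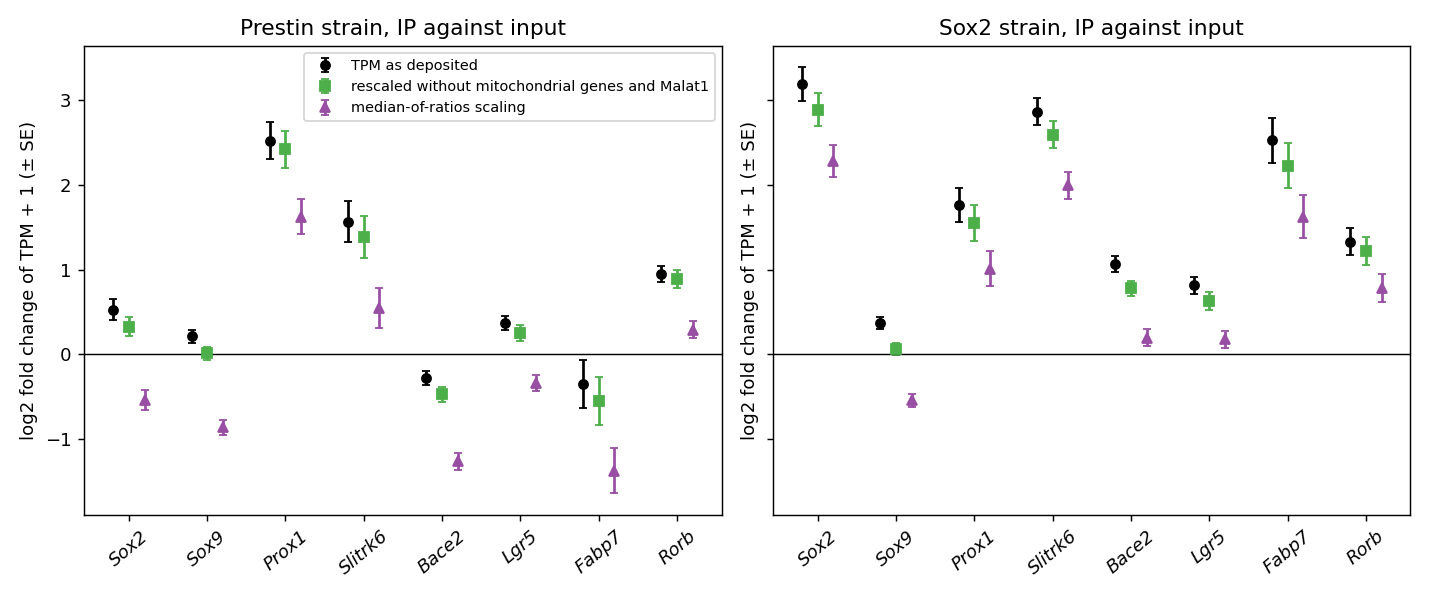
IP against input (log2 fold change of TPM + 1, ± SE) for each gene in the Prestin strain (left) and the Sox2 strain (right), with TPM as deposited (black circles), rescaled without mitochondrial genes and Malat1 (green squares) and with median-of-ratios scaling between libraries (purple triangles). Median-of-ratios scaling takes Sox2, Sox9 and Lgr5 below 0 in the Prestin strain and Sox9 in the Sox2 strain, and the other signs are the same in all 3 settings.

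The difference between the enrichments was tested as an interaction over all 32 libraries (Sox2 strain minus Prestin strain). It was positive past the threshold for 5 of the 8 genes, where 7.62% of 19648 genes were higher. These were Fabp7 (2.87 ± 0.41, adjusted p = 4.56e-05), Sox2 (2.66 ± 0.23, 8.36e-08), Bace2 (1.35 ± 0.12, 2.00e-07), Slitrk6 (1.29 ± 0.33, 0.00733) and Lgr5 (0.45 ± 0.12, 0.00923). The median over the 8 was 0.87, against -0.19 for all genes. Sox2 is the driver of the Sox2 strain, and the 8 genes were chosen with earlier results of these data known. Neither the count nor the median is therefore an independent test. For the other 3, the difference was not past the threshold: Prox1 was more enriched in the Prestin strain by estimate (-0.75 ± 0.32, adjusted p = 0.0936, 95% interval -1.41 to -0.10), and Rorb (0.38 ± 0.17, adjusted p = 0.115) and Sox9 (0.16 ± 0.11, adjusted p = 0.308, interval -0.06 to 0.39) in the Sox2 strain. The Prox1 difference passed without Prestin control homogenate 1 (-0.96 ± 0.26, adjusted p = 0.00868) or without Sox2 6 h homogenate 2 (-0.999 ± 0.33, adjusted p = 0.0367). The Rorb difference passed without Sox2 6 h homogenate 4 (0.51, adjusted p = 0.0432) or Sox2 control homogenate 4 (0.50, adjusted p = 0.0411). For Lgr5 the difference depended on the noise libraries: it was -0.02 ± 0.27 (adjusted p = 0.973) in the control libraries alone and 0.28 ± 0.13 (adjusted p = 0.159) without the 6 h libraries. In the control libraries alone, the difference of Slitrk6 was larger but less certain (2.51 ± 0.86, adjusted p = 0.147), and that of Fabp7 just missed the threshold (3.0 ± 0.65, adjusted p = 0.0587).

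Other genes of these cells were described from lists made up for this tissue with earlier results of these data known. Of 20 other supporting cell genes, 17 were higher and 0 lower in the Sox2 IP, where 55.2% of all genes were higher and 2.72% lower (limma, median 1.68 against 0.65 for all genes). The smallest p-values belonged to the growth factor receptor Fgfr3 (2.99 ± 0.14), the tectorial membrane protein Otog (2.69 ± 0.14) and the cell cycle inhibitor Cdkn1b (1.57 ± 0.08). In the Prestin IP, 13 of the 20 were higher, near the 68.5% of all genes, and 1 lower (median 0.60 against 0.82 for all genes), with the smallest p-values for Cdkn1b (1.84 ± 0.10), Fgfr3 (1.82 ± 0.11) and the Notch effector Hey2 (2.28 ± 0.13), and S100a1, a calcium-binding protein, was lower (-1.12 ± 0.08). The difference between strains was positive for 10 of the 20, where 7.62% of all genes were, with the smallest p-values for Ceacam16 (2.42 ± 0.19), Otog (2.10 ± 0.19) and the Notch ligand Jag1 (1.81 ± 0.18). S100a1 is named after its value was seen.

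Genes of other cell types were read against the same shares of all genes, 55.2% higher and 2.72% lower in the Sox2 IP and 68.5% and 7.68% in the Prestin IP. All 17 Schwann and satellite glia genes were higher in the Sox2 IP (median 2.28), with the smallest p-values for Fa2h (2.71), Foxd3 (3.57) and Cnp (2.80). In the Prestin IP 14 of the 17 were higher and 0 lower, with a median of 0.78 against 0.82 for all genes. By the test of the difference, 14 were more enriched in the Sox2 IP than in the Prestin IP, where 7.62% of all genes were. Their summed level was 3156 to 9539 TPM in the Sox2 IPs, 1638 to 2709 in the Prestin IPs, 931 to 1404 in the Sox2 inputs and 794 to 1407 in the Prestin inputs, and none of the 17 was at 0 in any Sox2 IP. The Sox2 pull-down thus carried transcripts of glia as well as of supporting cells, and the part of glia in the Sox2 and Fabp7 enrichments was not tested. The 9 outer hair cell genes were all higher in the Prestin IP (median 2.46) and summed to 511 to 2214 TPM there, against 122 to 162 in the Sox2 IPs, where none of the 9 was at 0. The Sox2 inputs summed to 73.5 to 99.6 TPM, below the Sox2 IPs. Of 8 outer hair cell genes tested in the Sox2 strain, 3 were higher and 0 lower in the IP (median 0.62 against 0.65 for all genes). Of 10 spiral ganglion neuron genes, 6 were higher in the Sox2 IP, near the share of all genes (median 0.51 against 0.65), and 1 was higher and 1 lower in the Prestin IP. Of 7 tested genes of the stria vascularis, 1 was higher and 6 lower in the Sox2 IP and 1 higher and 3 lower in the Prestin IP, and macrophage genes were lower for 3 of 7 and 3 of 6. For supporting cell genes in the Prestin IP, RNA from cells next to the hair cells and expression in the tagged cells cannot be told apart.

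Relatives of the 8 genes were compared in the same way. Of 24 relatives, 19 were higher and 1 lower in the Sox2 IP, and 17 of 23 higher and 1 lower in the Prestin IP, beside 55.2% and 68.5% of all genes higher. The Prestin count is thus near the share of all genes. Sox21, a further SOX factor, was higher in the Sox2 IP by 2.03 ± 0.24 and in the Prestin IP by 0.18 ± 0.20 (adjusted p = 0.439), a difference of 1.85 ± 0.32 (adjusted p = 3.76e-04). Sox8 and Sox10, the other SOX factors of glia and inner ear epithelium, were enriched in both strains (Sox8 0.93 and 1.05, Sox10 1.16 and 1.01 in the Sox2 and Prestin strain) with no difference past the threshold. Slitrk1, Slitrk2, Slitrk3, Slitrk4 and Slitrk5 were all higher in both IPs, by 0.85 to 2.46 in the Sox2 strain, and none differed between strains past the threshold, whereas Slitrk6 did. Bace1 was higher in both IPs (Sox2 strain 1.34 ± 0.15, Prestin strain 1.82 ± 0.16), whereas Bace2 was lower in the Prestin IP. Lgr4, the related R-spondin receptor, was more abundant than Lgr5 in the Prestin IPs (7.54 to 22.6 against 1.71 to 3.43 TPM) and higher in both IPs (Sox2 strain 1.92 ± 0.11, Prestin strain 2.42 ± 0.15). Rora, a receptor of the Rorb family, was higher in both IPs (Sox2 strain 1.18 ± 0.10, Prestin strain 1.38 ± 0.11), with a difference between strains of -0.20 ± 0.14 that did not pass (adjusted p = 0.319). Fabp3 shared the direction of Fabp7 between strains (1.07 ± 0.32, adjusted p = 0.0193), while Fabp5 did not pass (1.08 ± 0.59, adjusted p = 0.205).

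The genes whose levels most resembled each of the 8 over the 32 libraries were taken by Pearson's r of log2(TPM + 1) among shared genes averaging 5 TPM or more. The libraries fall into IPs and inputs of 2 strains, so r reflects those groups too and is given as a description. For the Sox2 transcript these were Mbp (0.948), a myelin protein, Gjb1 (0.934) and Sall2 (0.927). Prox1 was most like Luzp1 (0.976), Sema7a (0.972) and Fam78a (0.968). Caskin2 (0.935) and Jag1 (0.932) were among the genes most like Lgr5. Bace2 was closest to Ces1d (0.977), Fabp7 to Id2 (0.923) and Gpm6b (0.916), Slitrk6 to Scamp1 (0.929), Sox9 to Sesn3 (0.914) and Rorb to Ugdh (0.953).

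The second question was whether noise changed these genes. In none of the planned comparisons with control did any of the 8 pass the threshold (limma, 0 of 8 each), and no other test tool was run. In the Sox2 IP 0.694% of genes passed at 6 h and 0.188% at 24 h, and in the Prestin IP 5.63% and 6.23%. In the inputs of both strains together 8.54% passed at 6 h and 4.44% at 24 h. At an unadjusted p under 0.05, 1 of the 8 genes would have been called in each IP comparison and in the inputs at 6 h, and 2 in the inputs at 24 h. The share of all genes under that unadjusted threshold was not counted, here or below. Unadjusted counts therefore cannot be set against the shares given, which are of adjusted calls, and are not read as a response. Between 6 h and 24 h, 0 of 8 passed in the Sox2 IP (0.506% of all genes) and 0 of 8 in the inputs (16.1%), with 0 and 2 at an unadjusted p under 0.05. The 6 h and 24 h comparisons share their control libraries. The 95% intervals of single genes, not adjusted over genes, were wide. In the Sox2 IP at 6 h they spanned from 0.81 for Sox9 to 2.62 for Fabp7 on the log2 scale. The lack of a call thus does not exclude a change of a size inside such an interval. Some noise groups are described below as lying apart from their controls. Groups of 2 or 3 libraries can lie apart without a change, and the share of all genes that did so was not counted.

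**Figure D4:**
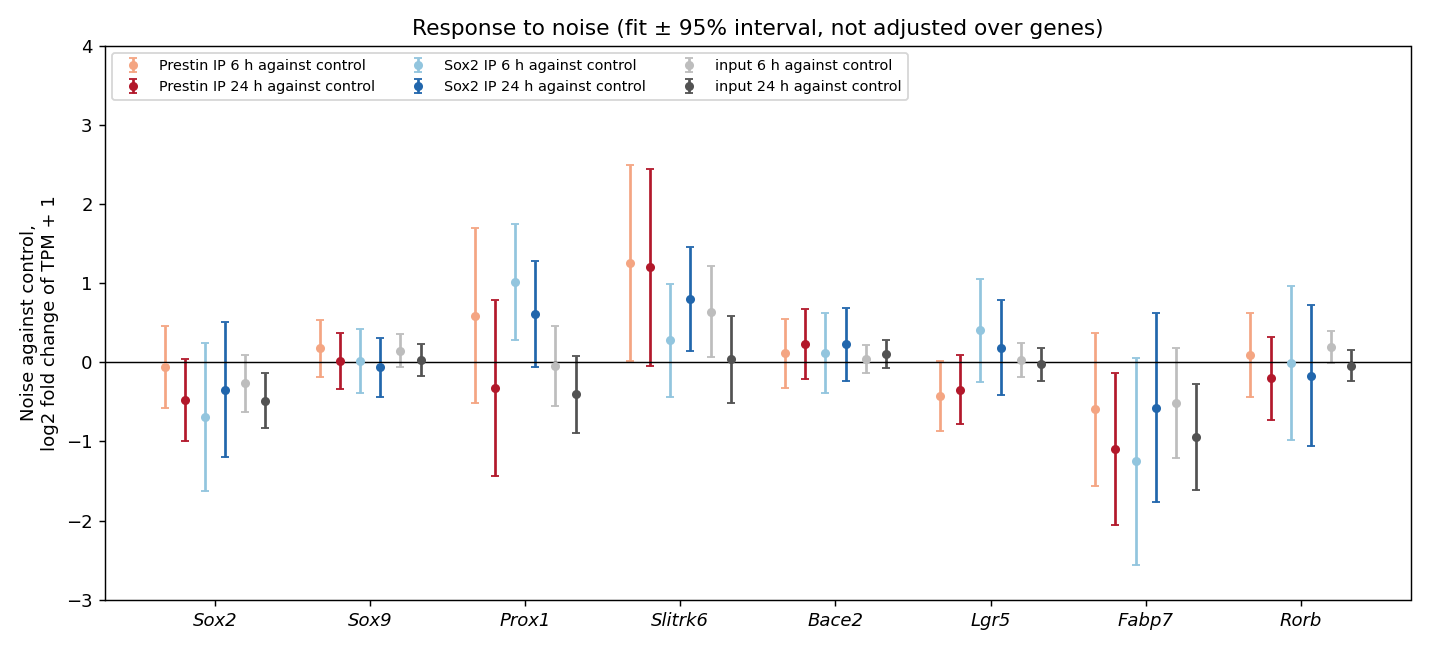
Log2 fold change of TPM + 1 against control at 6 h (light) and 24 h (dark) after noise for each gene in the Prestin IP (orange and red), the Sox2 IP (blue) and the inputs of both strains (grey), with 95% intervals that are not adjusted over genes. The Sox9, Bace2 and Rorb estimates lie near 0, the Fabp7 and Sox2 estimates lie below 0, and the Slitrk6 estimates lie above 0 in both IPs; 0 of 8 genes pass in each comparison after adjustment over all genes.

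Sox9 and Bace2 had the narrowest intervals of the 8 genes in the Sox2 IP at 6 h. Sox9 differed there from control by 0.02 ± 0.17 at 6 h (95% interval -0.39 to 0.43) and -0.06 ± 0.15 at 24 h (-0.44 to 0.31). Bace2 differed by 0.12 ± 0.21 (-0.39 to 0.63) and 0.23 ± 0.19 (-0.24 to 0.69). In the inputs, the intervals were -0.06 to 0.36 at 6 h and -0.17 to 0.23 at 24 h for Sox9, and -0.14 to 0.22 and -0.07 to 0.28 for Bace2. For Rorb the Sox2 IP estimates were near 0 (-0.01 ± 0.40 and -0.17 ± 0.36), with intervals of -0.98 to 0.97 and -1.06 to 0.72.

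The Sox2 transcript had lower estimates after noise in all 6 comparisons with control, none of them past the threshold. It differed by -0.69 ± 0.38 (adjusted p = 0.408) in the Sox2 IP at 6 h and -0.34 ± 0.35 (0.721) at 24 h. Both 6 h libraries lay below both controls, and the controls differed from each other by more (654 and 320.3 TPM) than the 6 h libraries from the lower of them. In the inputs the difference was -0.26 ± 0.17 at 6 h and -0.49 ± 0.16 at 24 h (adjusted p = 0.127, interval -0.83 to -0.14). In the Prestin strain the 24 h inputs (45.8 to 49.5 TPM) did not overlap the control inputs (66.6 to 80.2 TPM), and the 24 h IPs (49.9 to 85.4 TPM) did not overlap the control IPs (96.9 to 98.8 TPM). In the Sox2 strain both overlapped. The 24 h inputs held 33.02 to 36.4 TPM against 32.5 to 63.7 in controls, and the 24 h IPs 279.6 to 434 against 320.3 to 654. Sox2 input control replicate 4, at 32.5 TPM, lay below every noise input of its strain. The 24 h input difference passed when Sox2 input control replicate 4 was left out (-0.64 ± 0.15, adjusted p = 0.0246).

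Fabp7 had lower estimates in each of the 6 comparisons with control, none past the threshold. The largest estimate was -1.25 ± 0.53 in the Sox2 IP at 6 h (adjusted p = 0.294, interval -2.56 to 0.06), where the 2 libraries lay at 60.2 and 187 TPM. At 24 h it was -0.57 ± 0.49 in the Sox2 IP, -1.09 ± 0.42 in the Prestin IP (adjusted p = 0.149) and -0.94 ± 0.31 in the inputs (adjusted p = 0.125). In the Sox2 strain no IP or input after noise reached the lower of its controls, at 220.6 TPM (IP) and 38.1 TPM (input). The gaps were small, with the highest noise libraries at 219.4 TPM (IP, 24 h) and 37.6 TPM (input, 6 h). In the Prestin inputs the 6 h libraries spread from 11.8 to 46.3 TPM, around the controls of 20.8 to 43.4 TPM. Without the highest of them, Prestin input 6 h replicate 2, whose reading enters the shared estimate of spread, the 24 h input difference passed (-0.96 ± 0.25, adjusted p = 0.0458).

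Prox1 and Slitrk6 had higher estimates after noise in the Sox2 IP, none past the threshold. For Prox1 the difference was 1.01 ± 0.30 at 6 h (adjusted p = 0.167, interval 0.28 to 1.74) and 0.61 ± 0.27 at 24 h (adjusted p = 0.463), and all 5 noise libraries (10.6 to 18.6 TPM) lay above both controls (5.89 and 9.78 TPM). In the Prestin strain Prox1 was spread from 7.51 to 33.1 TPM among the control IPs, and its differences were 0.59 ± 0.48 at 6 h and -0.32 ± 0.48 at 24 h (adjusted p = 0.462 and 0.697). The Prestin inputs at 24 h (1.48 to 1.69 TPM) lay below their controls (2.69 to 3.97 TPM), and Prox1 passed there when the Prestin inputs were fitted alone (-0.80 ± 0.18, adjusted p = 0.0415), but not with both strains (-0.41 ± 0.22, adjusted p = 0.425). Slitrk6 in the Sox2 IP differed by 0.28 ± 0.29 at 6 h and 0.80 ± 0.27 at 24 h (adjusted p = 0.361), with the 24 h libraries (90.1 to 106 TPM) above both controls (42.6 and 76.4 TPM). In the Prestin IP it differed by 1.26 ± 0.54 at 6 h (adjusted p = 0.188) and 1.20 ± 0.54 at 24 h (adjusted p = 0.202); the control group includes the library at 7.24 TPM described above.

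Lgr5 estimates had opposite signs in the pull-downs. In the Sox2 IP the 5 noise libraries (3.38 to 4.71 TPM) lay above both controls (2.87 and 3.07 TPM), with differences of 0.40 ± 0.27 at 6 h and 0.19 ± 0.24 at 24 h. In the Prestin IP the 6 noise libraries (1.71 to 2.34 TPM) lay below the 3 controls (2.52 to 3.43 TPM), with -0.43 ± 0.19 (adjusted p = 0.201) and -0.35 ± 0.19 (adjusted p = 0.279). The difference between strains was 0.83 ± 0.27 at 6 h (adjusted p = 0.186) and 0.53 ± 0.26 at 24 h (adjusted p = 0.323), neither past the threshold. Over all 8 genes, 0 passed this test at 6 h (0.516% of all genes did) and 0 at 24 h (0.168%). At an unadjusted p under 0.05 the counts were 1 and 0, with no share of all genes counted. Reads of Lgr5 and its antisense gene A930009A15Rik may not be separated. In the Prestin IPs the antisense gene had 3.82, 4.26 and 2.62 TPM without noise, 1.46, 2.97 and 3.23 at 6 h and 1.14, 0.738 and 2.44 at 24 h. In the Sox2 IPs it had 0.839 and 0, 0 and 5.76, and 1.48, 0.509 and 0.971. Its part in the Lgr5 estimates was not tested.

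A strain difference of the noise response in the inputs was tested after the values had been seen. At 6 h, 1 of the 8 genes, Slitrk6, passed, where 1.02% of 16041 genes did. The Sox2 inputs were 4.49 and 6.40 TPM without noise and 19.2 and 18.7 TPM at 6 h, while the Prestin inputs were 11.4, 12.4 and 13.5 TPM without noise and 15.6, 8.46 and 13.3 TPM at 6 h. In the Sox2 strain the groups were wholly apart, and in the Prestin strain they overlapped. The difference was 1.67 ± 0.32 (adjusted p = 0.0322, limma), but it did not pass when any of 9 of the 16 input libraries was left out (values 1.46 to 1.74, adjusted p 0.052 to 0.119). These were the 3 Prestin controls, the 3 Prestin 24 h inputs, Prestin 6 h replicate 3, Sox2 6 h replicate 4 and Sox2 control replicate 1. With both strains in one fit, Slitrk6 differed from control at 6 h by 0.64 ± 0.27 (adjusted p = 0.155), and by 0.86 ± 0.23 (adjusted p = 0.0323) without Prestin input 6 h replicate 2, its lowest 6 h library. The 2 Sox2 inputs at 6 h are among the libraries that listed the fewest genes above 0; the part this plays was not tested. At 24 h none of the 8 genes differed between strains in the inputs (0 of 8, beside 0.00623% of all genes), and Slitrk6 gave 0.59 ± 0.31 (adjusted p = 0.737). At an unadjusted p under 0.05 there was 1, Prox1, with no share of all genes counted.

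Other supporting cell genes passed in the inputs, and those named here were chosen after their values were seen. At 6 h, when 3.83% of all genes rose and 4.71% fell, 4 of the 20 rose, Ceacam16 (0.67 ± 0.08), Hes1 (0.53 ± 0.12), Jag1 (0.45 ± 0.10) and Otog (0.45 ± 0.10), and 2 fell, the gap junction genes Gjb6 (-0.57 ± 0.07) and Gjb2 (-0.42 ± 0.08). At 24 h, when 3.78% of all genes rose and 0.662% fell, Otog (0.48), Ceacam16 (0.41) and Gjb2 (0.40) rose and S100a1 (-0.31) fell. Among the relatives, Sox8 fell at 6 h in the inputs (-1.19 ± 0.15, adjusted p = 2.60e-04) and in the Prestin IP (-1.08 ± 0.18, adjusted p = 0.0250), and none passed in the inputs at 24 h. In the Sox2 IP 0 of the 20 supporting cell genes passed at either time. At an unadjusted p under 0.05 there were 5 at 6 h and 4 at 24 h, with no share of all genes counted. In the Prestin IP 0 of the 20 passed at 6 h, and 1 rose past the threshold at 24 h, when 1.1% of all genes rose. Of 6 macrophage genes tested in the inputs, 3 rose at 24 h, among them Cd68 (3.15 ± 0.26), and their part in the levels of the 8 genes was not tested.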

How the data were processed

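RNA of 16 cochlear homogenates gave 32 libraries, IP and input of each, made with a directional library kit per the labels' protocols. The authors deposited TPM per gene and library. TopHat and the build GRCm38 are listed, per the submitters' processing notes, without their role; no source used here states the counting tool, annotation or use of strand. TPM keeps no read depth, so no counting interval could be given.

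All tests were made on log2(TPM + 1) by limma 3.58.1 (R 4.3.3), two-sided, with eBayes moderation and a trend, and p-values were adjusted by Benjamini-Hochberg over every gene tested, at a threshold of 0.05. Low genes were removed by asking for 1 TPM or more in a number of libraries equal to the smallest group. Each strain had its own fit of IP against input. Noise responses were fitted within each IP and over the inputs of both strains with strain as covariate, and strain differences as interaction terms. The code was tested on simulated data.

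The 8 genes and all lists were chosen with earlier results of these data known. By rule the text names the 8 genes, their relatives where they pass a test or bear on one of the 8, at most 3 genes of each other list by smallest p in an enrichment, and the genes of highest r; other names are marked, and a few genes are not reported here. Strain differences of the input responses were added after the data were seen, as were fits without the 6 h libraries and without mitochondrial genes and Malat1.

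The labels call the libraries biological triplicates. IP and input share a homogenate: the deviations of each IP from its group mean correlated best with those of its own input in 16 of 16 homogenates (r 0.067 to 0.559). Deviations within a group sum to 0, and both homogenates of a group of 2 give the same r. The 16 results are therefore not independent. Further settings were another pseudocount (0.1), unfiltered genes, median-of-ratios scaling, blocks for homogenate or replicate number, the controls or 1 strain alone, and omission of each library. Sequences are from RefSeq; 5 of the 8 genes matched. Files were read with pandas 2.3.3 (python 3.11.15, numpy 2.4.6) and drawn with matplotlib 3.10.9.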

Additional observations from a re-analysis of the deposited data

Results flagged for a closer look

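For 5 genes the enrichment in the pull-down differed between the strains by the test of the difference itself (Sox2 strain minus Prestin strain, log2 scale): Fabp7 2.87, Sox2 2.66, Bace2 1.35, Slitrk6 1.29 and Lgr5 0.45. Sox2 is also the driver of the Sox2 strain. The Lgr5 value was -0.02 in the control libraries alone. Slitrk6 also differed between strains in the 6 h response of the inputs, by 1.67, a call that was lost in 9 of 16 omissions of a library. Groups held 2 or 3 libraries, too few to test for a library far from the others.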

How the results depend on the processing

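Of 2061 values of single genes under other settings, 2015 stayed on their side of the threshold, and those past it kept their direction. The sign of a value that passed in neither fit was not counted. Median-of-ratios scaling, which moves the median gene of the enrichments from 0.82 to 0.05 (Prestin) and from 0.65 to 0.02 (Sox2), turned Sox2 (-0.54), Sox9 (-0.86) and Lgr5 (-0.33) negative in the Prestin strain and Sox9 (-0.54) in the Sox2 strain, with 7 and 6 of the 8 genes past the threshold (in the Prestin strain without Slitrk6 and with Fabp7). Rescaling without mitochondrial genes and Malat1 left Sox9 at 0.01 and 0.07, under the threshold. In the control libraries alone, 4 of 8 genes passed in the Prestin strain (7 in all libraries), 4 in the Sox2 strain (8) and 2 in the difference (5), where Lgr5 turned to -0.0214. Of the noise comparisons with 0 genes called, the Prestin inputs alone gave 1 at 24 h (Prox1), no filter gave 1 between 24 h and 6 h (Rorb, -0.24, adjusted p = 0.0465), and leaving out each library gave 0 to 1 for the inputs at 6 h, at 24 h and between them (Slitrk6, -0.81 without Prestin input 6 h replicate 2). For the strain difference of the input response at 6 h the count was 0 to 2 when each library was left out, with Prox1 added (1.41) without Sox2 input 6 h replicate 2, and 0 with the replicate block (Slitrk6 1.66).

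The homogenate block changed no call of the 8 genes in the enrichments. Deviations of same-numbered libraries across conditions correlated by -0.217 to 0.146, with 4 of 24 pairs over 0.1. Some IPs correlated no better with the input of their own homogenate (r from 0.067). These values therefore cannot decide whether replicate numbers pair the libraries, and a call lost with the replicate block is only reported. Counts over all genes moved more. In the Sox2 IP, 122 genes at 6 h became 0 with the replicate block, 242 with a pseudocount of 0.1, and 4 to 75 without each library, least without control replicate 4. The 33 at 24 h became 0 with the block and 0 to 30 without each library, least without the same control, and the 89 between times 0 with the block and 0 to 96, least without 24 h replicate 1. The Prestin IP counts of 940 and 1041 became 91 and 106 with the block, 90 without 6 h replicate 1 and 69 without 24 h replicate 2. The input counts of 1213, 631 and 2284 became 151, 0 and 517 in the Sox2 strain alone, 643, 329 and 1016 with the block, and 778 for the first without Sox2 control replicate 1. The enrichments' counts of 10746 (Sox2) and 4249 (difference) became 4655 and 401 in the control libraries, and the first 6897 with median-of-ratios scaling. Those of the strain differences, 98 and 32 in the IPs and 164 and 1 in the inputs, ran from 53 to 306 (most without Sox2 IP 6 h replicate 2), 20 to 220 (Sox2 IP control replicate 1), 73 to 2103 (Sox2 input 6 h replicate 2) and 0 to 39 (Sox2 input control replicate 1). Median-of-ratios scaling moved the split of higher to lower calls from 1498 and 2751 to 1835 and 1476 in the difference of enrichments, from 143 and 797 to 139 and 171 in the Prestin IP at 6 h, from 183 and 858 to 226 and 329 at 24 h, from 544 and 669 to 791 and 429 in the inputs at 6 h, and from 1790 and 494 to 1039 and 809 between 24 h and 6 h. The depth of the libraries is unknown.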
